A study of Mus musculus with 96 samples.

Results

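The 8 genes described here encode the subunits of the chaperonin CCT, also called TRiC: Tcp1, Cct2, Cct3, Cct4, Cct5, Cct6a, Cct7 and Cct8. They were chosen by symbol, and all 8 were found among the 24057 genes of the deposited table. They were followed in 95 single EL4 cells, a mouse T-lymphoma line, from 4 cultures. WT cells carried an shRNA against luciferase (shLuc) and CTCF-KD cells an shRNA against Ctcf (shCTCF), delivered by a virus that also encoded GFP, and GFP-positive cells were collected 5 days after infection. In each culture 24 cells were sequenced, shLuc #1 and shCTCF #1 in experiment 1 and shLuc #2 and shCTCF #2 in experiment 2, and 1 cell of shLuc #2 with 81 detected genes was left out. Each culture ran on its own microfluidic circuit, so the culture, the circuit and the knockdown within an experiment cannot be told apart. Replicates are therefore cultures, 2 per condition, and p-values measure only the spread between them.

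CCT is a double-ring machine in the cytosol that closes around an unfolded protein and uses ATP to fold it. Each ring holds one copy of every subunit in a fixed order, and the subunits are paralogs that differ in how strongly they bind ATP and in which stretch of a client they touch. Actin, tubulin and many WD40-repeat proteins need it, so it is found in every dividing cell. Prefoldin hands newly made actin and tubulin chains to the ring, and phosducin-like proteins modulate it.

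Whole reads were recovered from the TPM steps, and the kept cells held 3232422 to 6192121 recovered reads per culture, with medians of 131098 to 247586 reads per cell. Cells of the shLuc cultures had fewer detected genes (medians of 4771 for #1 and 4635 for #2) than those of the shCTCF cultures (6172.5 and 5656), a difference that moves with the condition and whose part in the results was not tested. All 7 fixed T cell markers were detected, with summed mean levels of 5810 to 8310 TPM. The 3 myeloid markers summed to at most 3.60 TPM in any culture, and Lyz2 was at 0. Mean Ctcf levels were 60.3 TPM in shLuc #1 and 15.96 in shCTCF #1, but 37.1 in shLuc #2 and 44.9 in shCTCF #2. The targeted mRNA was therefore not lower in the culture labelled shCTCF #2 than in its control, with a difference well inside the SD over cells of 45.5 and 50.0 TPM, and every direction drawn from that culture below rests on its label. These levels are mRNA in the sequenced cells, and CTCF protein was not analysed here.

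The subunit genes lie on 8 chromosomes of GRCm38 in the GENCODE M21 annotation. Cct5 is at chr15:31590800-31601804 on the minus strand, Cct2 at chr10:117051001-117063814 on the minus strand and Cct4 at chr11:22990519-23003780 on the plus strand. Cct3 is at chr3:88297116-88321767 on the plus strand, Cct6a at chr5:129786998-129846371 on the plus strand and Cct8 at chr16:87483326-87495873 on the minus strand. Cct7 is at chr6:85451514-85468475 and Tcp1 at chr17:12915701-12925067, both on the plus strand. A gene on the opposite strand starts within 1000 bases of the start of 6 of the 8 genes, as for 28.2% of the 11622 tested genes found in the annotation. These are Mrpl18 beside Tcp1, Tsacc beside Cct3, Fam173b beside Cct5, Psph beside Cct6a, Pradc1 beside Cct7 and B130034C11Rik beside Cct8, while Cct2 and Cct4 had none.

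Promoter windows of 300 bases, 250 before and 50 after the start, were given by RefSeq on GRCm38.p6 for 7 of the subunit genes, in 9 windows, and Cct4 is named only. Shown are the stretches before the start that lie in no annotated exon, for Cct3 and Cct8, the subunits with the largest differences between conditions, and for Cct7, which holds the most CCAAT boxes of the windows read. Capitals mark CCAAT boxes (ATTGG where the box is on the other strand) and CTCF core letters on either strand. The Cct3 stretch is chr3:88297000-88297115 on the plus strand, the Cct7 stretch chr6:85451284-85451504 on the plus strand and the Cct8 stretch chr16:87495874-87495998 on the minus strand.
Cct3: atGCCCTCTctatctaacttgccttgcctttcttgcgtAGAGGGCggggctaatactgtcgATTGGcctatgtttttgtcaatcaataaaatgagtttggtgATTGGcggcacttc
Cct7: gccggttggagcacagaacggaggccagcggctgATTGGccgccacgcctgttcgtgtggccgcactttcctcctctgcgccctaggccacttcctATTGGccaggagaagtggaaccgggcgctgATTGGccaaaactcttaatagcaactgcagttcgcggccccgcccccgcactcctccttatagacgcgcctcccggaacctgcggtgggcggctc
Cct8: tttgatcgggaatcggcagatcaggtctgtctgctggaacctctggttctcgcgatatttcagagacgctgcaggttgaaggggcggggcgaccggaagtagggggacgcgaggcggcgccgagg

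The Cct3 stretch of 116 bases is all that separates the start of Cct3 from that of Tsacc, and it held 2 CCAAT boxes and 2 CTCF core matches, one of which overlaps a GC box. The Cct7 stretch of 221 bases held 3 CCAAT boxes and no CTCF core, and the Cct8 stretch of 125 bases held neither. Letters were searched on both strands in the 300-base windows. A CTCF core was counted for AGGGGGC as one form, AGATGGC as another, AGAGGGC as a further form and AGGTGGC as the last, and it was found for Tcp1, Cct2 and Cct3, which is 3 of 7 subunit genes, and in 27.6% of all 32851 windows. CCAAT was found for 4 of the 7 genes (Tcp1, Cct3, Cct6a and Cct7) and in 37.4% of all windows. The GC box GGGCGG was found for 7 of 7 genes and in 35.7% of windows. A heat shock element, searched as GAANNTTC and, where it faces outward, as TTCNNGAA, was found for Cct2, Cct5 and Cct6a, 3 of 7 genes, and in 15.1% of windows, and the E-box CACGTG was found for 0 of 7 and in 7.15%. The GC content of the subunit windows ran from 47.3% to 67.7%, with a median of 52.7% over all windows. The shares of all windows count windows, not genes. Counted in that way, the subunits had a CTCF core in 3 of 9 windows and CCAAT in 4 of 9. The GC box was in 8 of 9, a heat shock element in 3 of 9 and the E-box in 0 of 9. These matches describe letters in a window and do not show binding.

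All 8 subunits were abundant in these cells. Summed over the subunits, the mean level of the WT cultures was 4555 ± 1343 TPM for #1 (SD, n = 24 cells) and 6059 ± 2142 for #2 (n = 23). For the CTCF-KD cultures it was 5504 ± 1464 for #1 (n = 24) and, as labelled, 7239 ± 1932 for #2 (n = 24). The complex thus took 0.455% to 0.724% of the transcript total. Nearly every cell had reads of every subunit: in 26 of 32 combinations of subunit and culture all cells were positive, and 7 values in all were at 0. The lowest share was 91.3% for Cct2 in shLuc #2, 21 of 23 cells, with an exact 95% binomial interval of 71.96% to 98.9%. Subunits had a median of 64 to 381 recovered reads per cell, and after thinning to 80000 reads per cell 14 values were at 0 in the 94 cells deep enough. Reads carry no molecular identifiers, and intervals cover counting error only.

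Levels were compared between subunits as TPM, which is per length, so their order depends on the length used for each gene. Cct5, the epsilon subunit, was the most abundant, with geometric mean levels over the 4 cultures of 1552 TPM, and it was followed by Cct7 (eta) with 1168 and Cct6a (zeta) with 709. Cct3 (gamma) had 598, Cct2 (beta) 463, Cct4 (delta) 451, Cct8 (theta) 396 and Tcp1 (alpha) 376 TPM. The top of this order was shared by all cultures. Cct5 exceeded Cct7 in 4 of 4 cultures by 0.41 ± 0.14 on the log2 scale (SD over cultures), and Cct7 exceeded Cct6a in 4 of 4 by 0.72 ± 0.12. Each of the 5 neighbouring pairs further down was ordered one way in 2 cultures and the other way in the other 2. In both shLuc cultures Cct6a and Cct2 were above Cct3, and Cct4 and Tcp1 above Cct8. In both shCTCF cultures, as labelled, each of these pairs was reversed. Cct2 and Cct4 split by culture number instead, with Cct2 higher in both #1 cultures. Some margins were small beside the SD over cells, as for Cct2 and Cct3 in shLuc #2 (520 ± 384 and 506 ± 416 TPM). In the culture labelled shCTCF #2, Cct3 and Cct6a had 841 ± 506 and 829 ± 265 TPM. Others were wider, as for Cct6a and Cct3 in shLuc #1 (607 ± 304 and 408 ± 454 TPM). These splits were not tested. The ratio of the highest to the lowest subunit was 4.13, and 3.05 to 5.40 within single cultures.

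**Figure D1:**
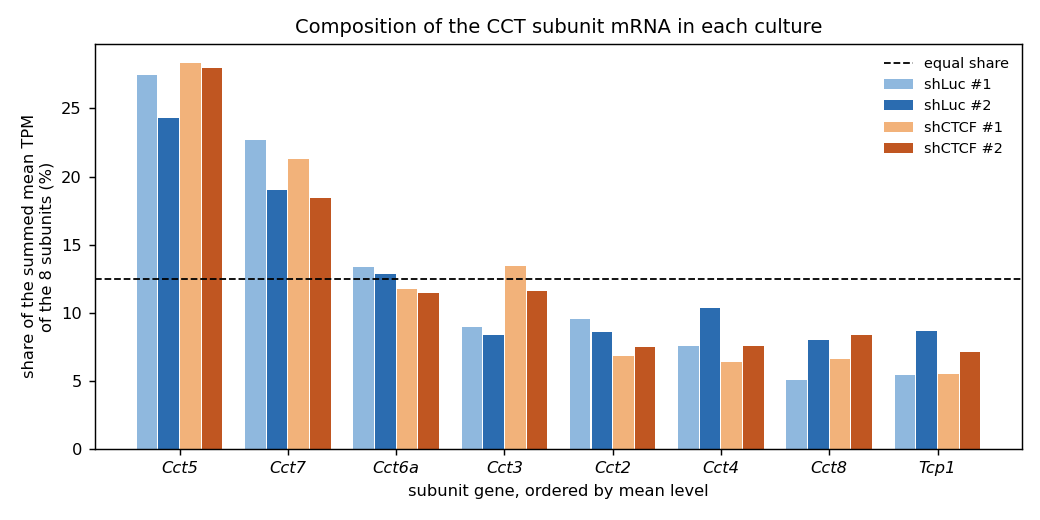
Share of each subunit in the summed mean TPM of the 8 subunits (vertical axis, percent; bars, one per culture), with the equal share of 12.5% as a dashed line. Cct5 held 24.3% to 28.3% and Cct7 18.4% to 22.7% in the 4 cultures, whereas Tcp1 and Cct8 stayed at 8.62% or below.

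The protein complex contains equal numbers of the subunits, but the mRNA shares were unequal in every culture. An equal share would be 12.5%. Cct5 held 27.5%, 24.3%, 28.3% and 27.9% in shLuc #1, shLuc #2, shCTCF #1 and the culture labelled shCTCF #2, and Cct7 held 22.7%, 19.03%, 21.3% and 18.4%. Cct6a stayed near the equal share, with 13.3% and 12.8% in the shLuc cultures and 11.7% and 11.5% in the shCTCF cultures. The share of Cct3 was 8.97% and 8.35% in the shLuc cultures and 13.4% and 11.6% in the shCTCF cultures. Cct2 lay the other way, with 9.52% and 8.59% against 6.82% and 7.51%. The shares of Cct3 and Cct5 were thus higher and those of Cct2 and Cct6a lower in both shCTCF cultures than in both shLuc cultures, without a test, and shares of one sum are not independent of each other. The shares of Tcp1, Cct4 and Cct8 overlapped between conditions and were higher in both #2 cultures than in the #1 culture of the same condition.

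Culture means were then compared between conditions with limma on log2(mean TPM + 1) over 11980 genes. All 8 subunits passed the filter on low values, and 0 of them had an adjusted p under 0.05, against 0% of all genes. At an unadjusted p under 0.05, 1 subunit was higher in CTCF-KD cells (Cct3), against 4.79% of all genes, and 0 were lower, against 2.82%. The differences of the 8 subunits had a median of 0.17, against 0.04 over all genes, and 6 of 8 were positive, as were 52.1% of all genes. Without shLuc #1 the median was −0.065 with 3 of 8 positive, and without the culture labelled shCTCF #2 it was 0.0029 with 4 of 8 positive. In 3 of 8 subunits (Cct3, Cct5 and Cct7) both shCTCF cultures lay above both shLuc cultures, as did 19.9% of all genes, and in 0 of 8 they lay below both, as did 16.9%.

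**Figure D2:**
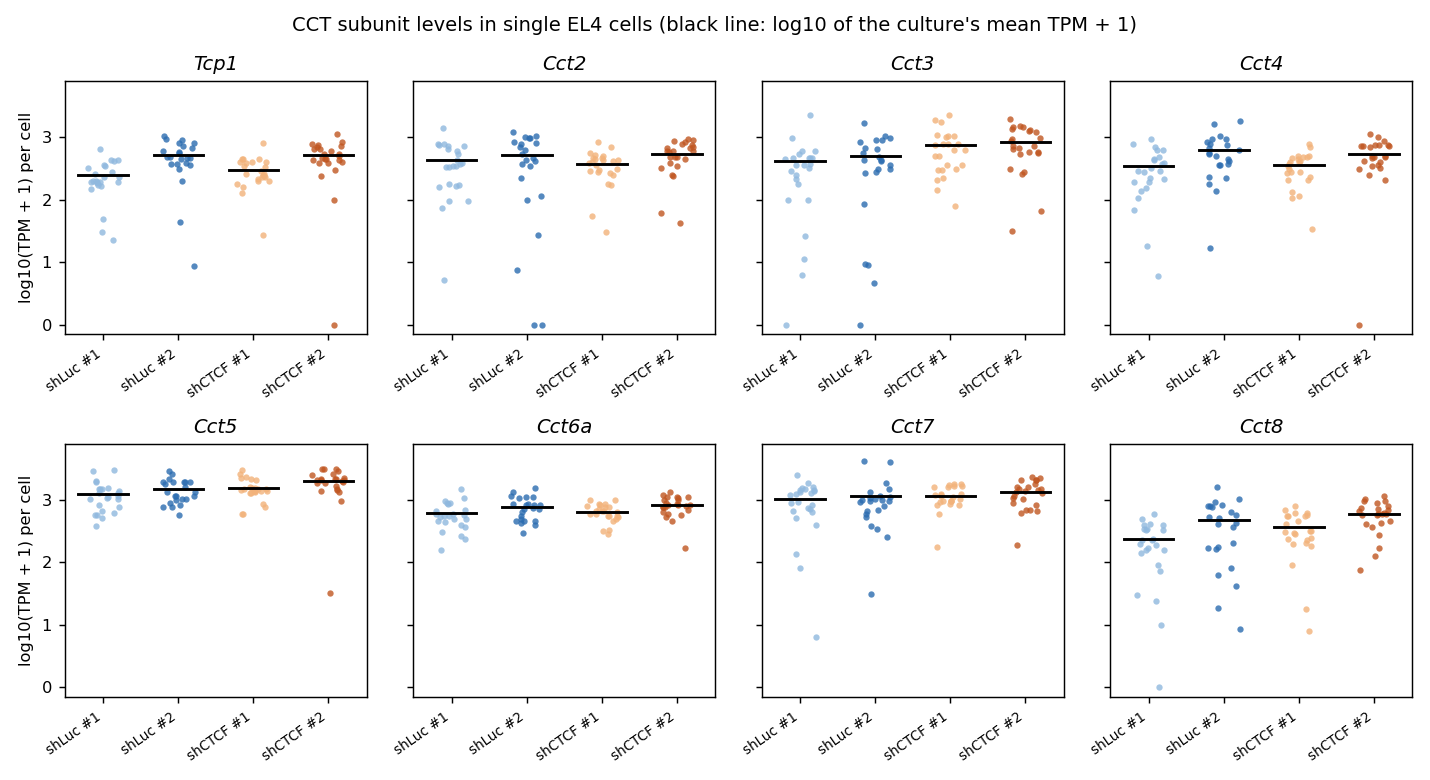
TPM of each subunit in each of the 95 cells on a log10(TPM + 1) axis (points, grouped by culture), with black lines at the culture means. Most cells of a culture lie in one band, and the shLuc cultures have more cells far below it, for example 4 and 4 cells under 10% of the culture's median for Cct3 against 0 and 2 in the shCTCF cultures.

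Among the subunits that bind ATP strongly are Cct5, Cct2 and Cct4. Cct5 had mean levels of 1250.4 ± 673 and 1472 ± 619 TPM in the shLuc cultures #1 and #2, and of 1559 ± 593 and 2023 ± 718 in the shCTCF cultures as labelled (SD of the cells). Its single cells ran from 386 to 2967, 581 to 2868, 585 to 2972 and 31.7 to 3186 TPM in the same order, and the lowest cell of the last culture is described below. Both shCTCF cultures were above both controls, with a log2 difference of 0.39 ± 0.30 (SE; adjusted p = 0.797 with limma). Cct2 had 434 ± 320, 520.4 ± 384, 375 ± 184 and 543 ± 252 TPM in the same order of cultures, and its groups overlapped (log2 difference −0.07 ± 0.33). Single cells of Cct2 reached from 4.13 to 1379.7, 0 to 1203, 29.5 to 840.0 and 41.9 to 953 TPM, with the lowest cells in the shLuc cultures. Cct4 had 343 ± 244, 625 ± 448, 352 ± 181 and 547 ± 265 TPM. Both #2 cultures of Cct2 and of Cct4 were above both #1 cultures, whatever the shRNA, and the log2 difference of Cct4 between conditions was −0.08 ± 0.41. Its medians over cells were 288, 529, 358 and 486 TPM.

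Cct3, Cct6a and Cct8 belong to the side of the ring that binds ATP weakly. Cct3 had the largest difference of the 8, with 408 ± 454, 506 ± 416, 738 ± 569 and 841 ± 506 TPM in shLuc #1, shLuc #2, shCTCF #1 and the culture labelled shCTCF #2. Its medians over cells were 359.9, 434, 617 and 718 TPM, higher in both shCTCF cultures as well. Single cells ran from 0 to 2242 and 0 to 1692 TPM in the shLuc cultures and from 79.3 to 2279.6 and 30.7 to 1973 TPM in the shCTCF cultures. The log2 difference was 0.79 ± 0.29 (adjusted p = 0.622 with limma), 0.85 in experiment 1 and 0.73 in experiment 2. For Cct8 the culture means were 232 ± 160.3, 483 ± 399, 364 ± 216 and 605 ± 285 TPM, higher in the shCTCF culture of both experiments (0.65 and 0.32 on the log2 scale) but with overlapping groups, and the difference was 0.49 ± 0.46 (adjusted p = 0.837 with limma). Cct6a had 607 ± 304, 778 ± 324, 644 ± 192 and 829 ± 265 TPM, the smallest spread relative to its mean of the 8 subunits in all 4 cultures (CV of TPM 29.9% to 50.01%), and a log2 difference of 0.09 ± 0.31.

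Cct7 and Tcp1 complete the ring. Cct7 had 1035 ± 595, 1153 ± 1029, 1170.2 ± 410.3 and 1334 ± 572 TPM, and both shCTCF cultures lay above both controls by a narrow margin, with a log2 difference of 0.19 ± 0.28 (adjusted p = 0.903 with limma). Tcp1 had 245 ± 144, 522 ± 266, 301 ± 155 and 516 ± 242 TPM, with a log2 difference of 0.14 ± 0.47. As for Cct2 and Cct4, both #2 cultures of Tcp1, Cct6a and Cct8 were above both #1 cultures.

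The scale on which cells were averaged mattered for Cct3. With log2(TPM + 1) averaged over cells, a scale on which low cells weigh more, the median difference over all genes was 0.23 and over the subunits 0.47, and 8 of 8 subunits were positive. Cct3 then had means of 7.59, 7.80, 9.11 and 9.29 and a log2 difference of 1.51 ± 0.41, with an adjusted p of 0.12 by limma, and 0 of 8 subunits were called, against 0.384% of all genes. With the culture number as a block on that scale, a fit added after seeing the data, Cct3 passed (adjusted p = 0.0151 with limma). The other 7 subunits did not, and 5.73% of all genes passed. Most called genes were higher in CTCF-KD cells, 44 of 46 on that scale and 650 of 687 with the block. WT cells had fewer detected genes, as given above, and the part of this was not tested. On the scale of log2(mean TPM + 1) the block left 0 of 8 called, and the adjusted p of Cct3 was 0.245.

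The cultures also differed between the experiments. All 8 subunits were higher in culture #2 than in culture #1 in WT cells and again in CTCF-KD cells, as were 37.1% of all genes. In WT cells the log2 differences ran from 0.16 for Cct7 to 1.09 for Tcp1, with a median of 0.33 against 0.19 over all genes. In CTCF-KD cells they ran from 0.19 for Cct3 and Cct7 to 0.77 for Tcp1, with a median of 0.45 against 0.16. Tcp1, Cct4 and Cct8 had the 3 largest values in both conditions, 1.09, 0.86 and 1.06 in WT cells and 0.77, 0.64 and 0.73 in CTCF-KD cells. The #2 cultures also had fewer recovered reads than the #1 cultures, 5493040 against 6192121 in WT cells and 3232422 against 5606532 in CTCF-KD cells, and the part of depth in these differences was not tested.

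**Figure D3:**
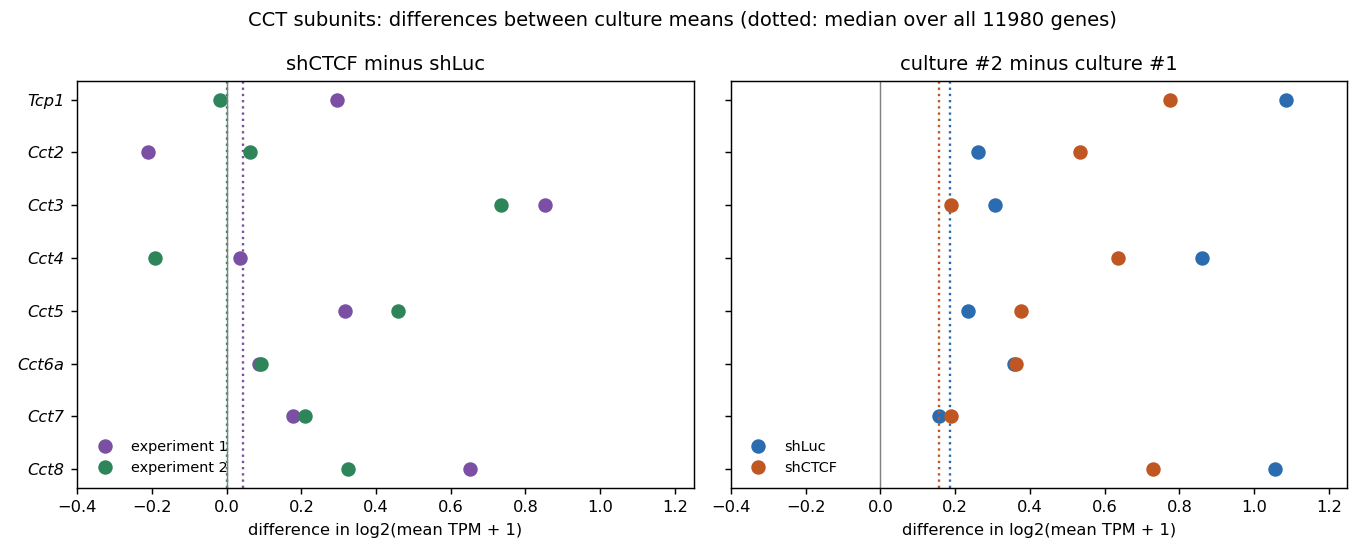
Differences in log2(mean TPM + 1) for each subunit, shCTCF minus shLuc in experiments 1 and 2 (left) and culture #2 minus culture #1 for shLuc and shCTCF (right), with dotted lines at the median over all genes. Cct3 lies farthest right on the left panel (0.85 and 0.73), and all 16 points of the right panel are above 0.

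Cell-to-cell variation was measured within each condition as the SD of log2(TPM + 1) divided by its mean (CV). It was lower in CTCF-KD than in WT cells for 6 of 8 subunits, as for 81.5% of 7843 genes. By the rule of 1 SD around the mean CV difference 0 of 8 subunits had a decrease and 0 an increase, against 11.3% and 7.68% of all genes. The mean CV difference over all genes was −0.279 with an SD of 0.406, and no subunit had a CV above 0.345 in WT cells. A CV cannot fall below 0, so the rule could not call a decrease for any subunit, and that count says nothing about them. Cct3 had the largest difference, from 0.345 in WT to 0.141 in CTCF-KD cells, followed by Cct2 (0.302 and 0.130), Cct8 (0.272 and 0.162) and Cct7 (0.169 and 0.0740). Cct4 had 0.193 and 0.184 and Cct6a 0.0759 and 0.0604. Tcp1 (0.176 and 0.185) and Cct5 (0.0688 and 0.0940) were the only subunits with a higher CV in CTCF-KD cells, and without the cell described next 8 of 8 were lower.

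That cell, in the culture labelled shCTCF #2, was the only kept cell under 80000 recovered reads. It held 41591 reads and 3150 detected genes, and its subunits summed to 1457 TPM, with Tcp1 and Cct4 at 0 and Cct5 at 31.7 TPM where the culture's median for Cct5 was 2115 TPM. The CV differences of Cct3 were nearly equal in both experiments, −0.201 and −0.213, and Cct2, Cct6a, Cct7 and Cct8 were also lower in the shCTCF culture of both. Those of Tcp1, Cct4 and Cct5 were negative in experiment 1 and positive in experiment 2.

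**Figure D4:**
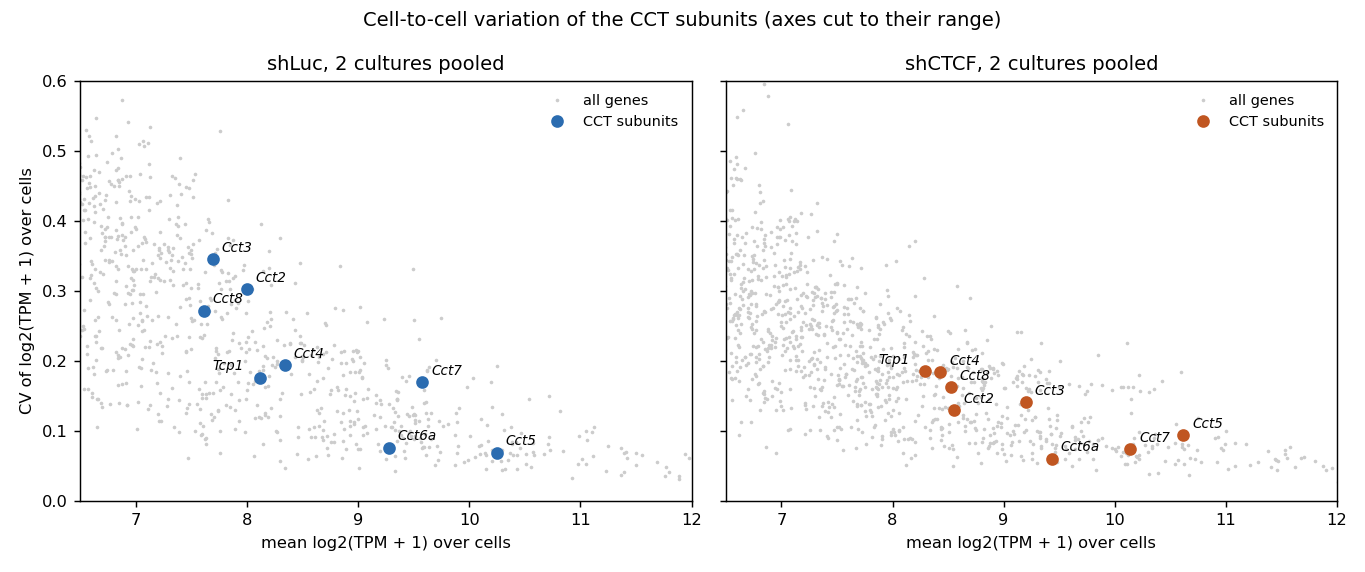
CV of log2(TPM + 1) over cells (vertical axis) against the mean of log2(TPM + 1) (horizontal axis) in shLuc and shCTCF cells, with the subunits as large points and the genes that fall inside the axes in grey. Cct3 moves from a CV of 0.345 at a mean of 7.69 to 0.141 at a mean of 9.20. The median CV of 201 genes of like mean was 0.237 and 0.113 there.

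The CV falls with the mean, so each subunit was set beside the running median of 201 genes of like mean. Of the 8 subunits, 5 were above it in WT cells and 4 in CTCF-KD cells, with the shallow cell included. Those 4 include Tcp1 (0.185 against 0.175), Cct4 (0.184 against 0.170) and Cct5 (0.0940 against 0.0751). These are subunits at 0 or 31.7 TPM in the shallow cell, and Cct3, the other of the 4, was at 30.7 TPM there. The running median was not taken without that cell, so the place of all 4 above it in CTCF-KD cells is not settled. Without it the median CV of the subunits in CTCF-KD cells was 0.110, against 0.135 with it. With the shallow cell included, Cct3 was above the running median in both conditions (0.345 against 0.237, and 0.141 against 0.113). Cct2 changed sides, with 0.302 against 0.205 in WT cells and 0.130 against 0.167 in CTCF-KD cells. Cct6a was below it in both, with 0.0759 against 0.121 and 0.0604 against 0.0987.

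Cells with very little of a subunit were counted next. Values under 10% of the culture's median made up 26 of 376 subunit values in WT cells (6.91%) and 10 of 384 in CTCF-KD cells (2.60%). Over the 360 other genes with a mean level in the range of the subunits the shares were much the same, 7.12% and 3.40%, and WT cells also had fewer detected genes, as given above. In shLuc #1 there were 11 such values in 9 cells and in shLuc #2 15 in 11 cells, against 4 in 3 cells of shCTCF #1 and 6 in 3 cells of the culture labelled shCTCF #2, where 4 of the 6 came from the shallow cell. Of the affected cells, 5 of 20 WT cells and 2 of 6 CTCF-KD cells were low in 2 or more of the 8 subunits. No number expected for independent subunits was set beside these counts, so whether low values are shared was not tested. Cct5 had no low cell outside the shallow one and Cct6a none at all, while Cct3 had 4 in each shLuc culture. The CV of TPM over cells was 29.9% to 111% over subunits and cultures, and counting of reads alone, which leaves out capture and amplification, would give 5.11% to 12.2%.

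Whether the subunits vary together from cell to cell was described by their correlations. For the 28 pairs of subunits Pearson's r on the log2(TPM + 1) scale had a median of 0.0328 over the 24 cells of shLuc #1 and of 0.0894 over the 23 cells of shLuc #2. In the shCTCF cultures, of 24 cells each, the median was 0.213 for #1 and, as labelled, 0.386 for #2. Between a subunit and the 7835 other genes it was 0.0287, 0.0430, 0.0223 and 0.127. Cells of one culture share its circuit, and within a cell all values share its depth. In the culture labelled shCTCF #2 the correlations rested on the shallow cell, without which the median was 0.151 and the highest pair fell from 0.926 to 0.499. Spearman's rho, which weighs that cell less, had medians of 0.0487, 0.195, 0.177 and 0.24 in the 4 cultures.

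**Figure D5:**
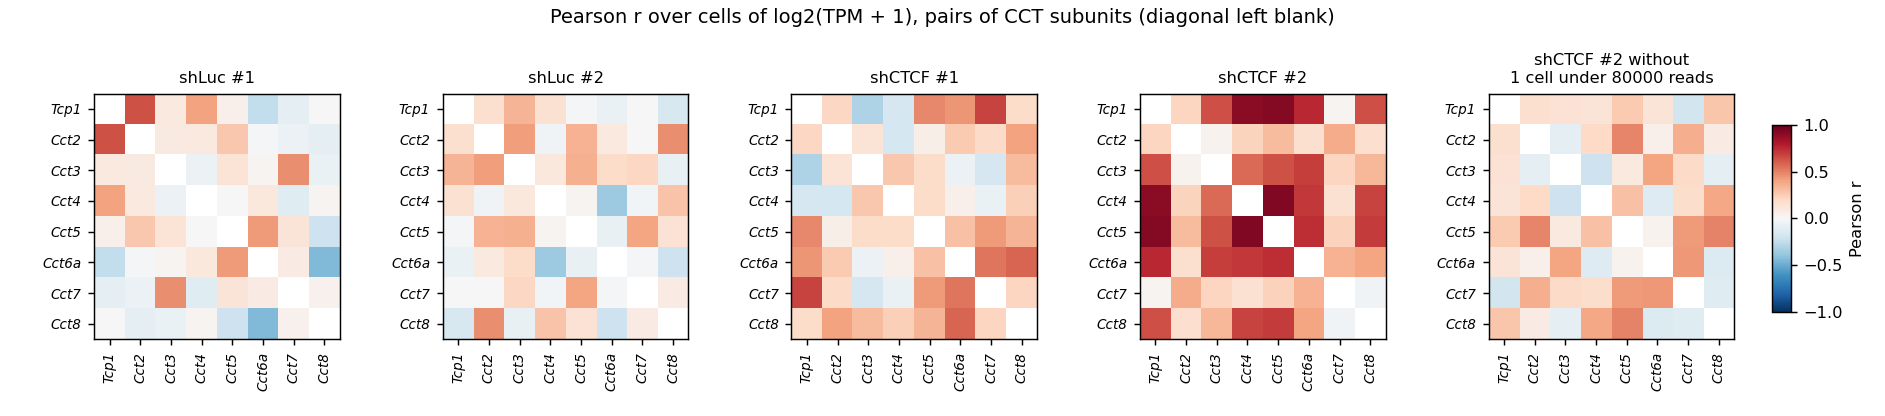
Pearson r over cells for each pair of subunits (color, from −1 to 1) in the 4 cultures, and in shCTCF #2 without the cell under 80000 reads. The dark block of shCTCF #2, up to 0.926 for Cct4 and Cct5, is absent in the last panel, where no pair exceeds 0.499.

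Of 28 pairs, 6 had a positive r in 4 of 4 cultures. These were Cct3 and Cct5, Cct4 and Cct8, Tcp1 and Cct2, Cct5 and Cct7, Cct2 and Cct5, and Cct2 and Cct3, of which the last was −0.0947 in the culture labelled shCTCF #2 without the shallow cell. Tcp1 and Cct2 had 0.637, 0.160, 0.207 and 0.212 in shLuc #1, shLuc #2, shCTCF #1 and the culture labelled shCTCF #2, and Cct5 and Cct7 had 0.133, 0.392, 0.426 and 0.232. At the other end, Cct6a and Cct8 had −0.442 and −0.211 in the shLuc cultures but 0.586 and 0.398 in the shCTCF cultures, of which the last was −0.136 without the shallow cell. No pair was negative in all 4.

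Each subunit was also set against the mean log2(TPM + 1) of the other 7. By the mean r over cultures Cct5 came first of the 8, at position 7 among 7836 genes, or position 8 without the shallow cell. Its r was 0.183, 0.418, 0.492 and 0.951 in the 4 cultures, the highest of the subunits only in the last. Tcp1 was highest in shLuc #1 (0.336), Cct2 in shLuc #2 (0.496) and Cct8 in shCTCF #1 (0.620). Next were Tcp1 at position 60, Cct3 at 174, Cct2 at 278, Cct8 at 281, Cct6a at 392, Cct4 at 444 and Cct7 at 857. Without the shallow cell Cct2 came to 100, Cct7 to 349, Tcp1 to 408, Cct3 to 696, Cct8 to 803, Cct6a to 1371 and Cct4 to 2258. The SD over cells of the summed subunits was 1343, 2142, 1464 and 1932 TPM, and the SDs of the single subunits, added as if uncorrelated, would give 1146, 1516, 1009 and 1201 TPM. The SD of the sum was thus above the value for uncorrelated subunits in 4 of 4 cultures. In the culture labelled shCTCF #2 it includes the shallow cell, with a sum of 1457 TPM against a median of 7157. Sums of other genes were not examined, and all values of a cell share its depth. Whether the excess is particular to the subunits was therefore not tested.

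The 5 genes most like the subunits over cells were Ptges3, Mtch2, Commd3, Npm1 and Cnbp, out of 7835. The list depended on the shallow cell, without which the first 5 were Ptges3, Npm1, Mtch2, Ran and Acat3, while Commd3 came to position 34 and Cnbp to 82. Ran, a nuclear transport GTPase, and Acat3, which overlaps Tcp1, had a mean r of 0.463 and 0.439 without that cell and are named after their values were seen. Ptges3, the HSP90 co-chaperone p23, had r with the subunit mean of 0.486, 0.560, 0.589 and 0.931 in the 4 cultures and 0.564 in the last without the shallow cell, and it kept the first position. Npm1, nucleophosmin, had 0.210, 0.619, 0.691 and 0.757, with 0.607 without that cell. Mtch2, a protein insertase of the outer mitochondrial membrane, had 0.521, 0.701, 0.604 and 0.665, Commd3 0.579, 0.495, 0.332 and 0.872, and Cnbp, a nucleic-acid binding protein, 0.291, 0.448, 0.638 and 0.808. Without the shallow cell the last value was 0.0329 for Mtch2, 0.1002 for Commd3 and −0.00460 for Cnbp. Between the mean of the subunits and the number of genes detected in a cell, r was 0.204, 0.369, 0.122 and 0.724 in the 4 cultures. In the last it was 0.456 without the shallow cell. Spearman's rho was 0.0791, 0.490, −0.0852 and 0.444, so a relation by both measures was seen only in the #2 cultures. Of the 5 genes Ptges3 had the largest difference between conditions, with a log2 difference of 1.36 ± 0.44 (adjusted p = 0.597 with limma).

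The partners of CCT were followed as fixed lists, and 0 genes of any list had an adjusted p under 0.05. For the 6 prefoldin genes the median difference was 0.31, with 4 positive and 2 negative. Pfdn5, the most abundant of them, had mean levels of 1336, 1042, 836 and 535 TPM in shLuc #1, shLuc #2, shCTCF #1 and the culture labelled shCTCF #2, both shCTCF cultures below both controls (log2 difference −0.82 ± 0.34, adjusted p = 0.656 with limma). Pfdn2 (0.73 ± 0.57) and Pfdn1 (0.36 ± 0.33) lay the other way. Unlike the subunits, 1 of 6 prefoldin genes was higher in culture #2 of both conditions. Of the phosducin-like cofactors 3 of 4 were tested, Pdcl2 being at 0 in every cell, with log2 differences of 0.66 ± 0.37 for Pdcl3, which had the highest level, 0.38 ± 0.73 for Txndc9 and −0.20 ± 0.52 for Pdcl.

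Paralogs of the subunits were scarce. Cct6b, the paralog of Cct6a known from testis, was detected in 3, 1, 2 and 1 cells of the 4 cultures with means of 6.34, 2.31, 4.41 and 0.388 TPM, and Cct8l1 in 0 cells. The chaperonin-like genes of the Bardet-Biedl group had log2 differences of 1.41 ± 0.88 for Bbs10, detected in 3, 3, 4 and 4 cells, and 0.24 ± 0.70 for Mkks, the most abundant with a mean of 18.8 TPM. Bbs12 was detected in 1 cell of each shCTCF culture and in 0 cells of the shLuc cultures. Cct6a, by comparison, had at least 607 TPM in every culture mean.

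Of 24 client genes 23 were tested, with a median difference of 0.24, 17 positive and 6 negative. At an unadjusted p under 0.05, 2 of 23 were higher and 2 of 23 lower, against 4.79% and 2.82% of all genes. Ccne1, cyclin E1, had the highest statistic with 9.62, 18.7, 92.6 and 62.2 TPM (log2 difference 2.41 ± 0.59). It was detected in 4 of 24 and 4 of 23 shLuc cells and in 19 of 24 and 11 of 24 shCTCF cells. Its SDs over cells, 34.8, 71.8, 97.1 and 113 TPM, were above the means. Tuba4a, an alpha-tubulin, had a log2 difference of 0.98 ± 0.38. Stat3, a signaling transcription factor, had the lowest with 114, 153, 54.9 and 51.3 TPM (−1.30 ± 0.39, adjusted p = 0.585 with limma). Actb, the beta-actin client, was the most abundant gene of the list with 9419, 8370, 14593 and 11982 TPM (0.57 ± 0.33).

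Among 13 other folding chaperones the median difference was 0.38, with 11 positive and 2 negative, and 11 of 13 were higher in culture #2 of both conditions, as all 8 CCT subunits were. The mitochondrial chaperonin Hspd1 had 103, 166, 201 and 343 TPM (0.99 ± 0.42) and its partner Hspe1 163, 159, 235 and 286 TPM (0.68 ± 0.32). Hsp90ab1, the cytosolic HSP90, was the most abundant (0.26 ± 0.32), and Hspa8, the constitutive HSP70, had the lowest statistic (−0.12 ± 0.32). The heat shock factors Hsf1 and Hsf2 had 0.02 ± 0.50 and −0.07 ± 0.51.

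The genes beside the subunits on the opposite strand had their own values. Psph beside Cct6a had 48.9, 40.5, 83.1 and 95.5 TPM in the 4 cultures (log2 difference 0.99 ± 0.42, adjusted p = 0.656 with limma), whereas Cct6a itself had 0.09. Tsacc, 117 bases from the start of Cct3, had 14.01, 24.2, 23.5 and 47.1 TPM (0.82 ± 0.67) in 29 of 95 cells. The log2 differences were 0.47 ± 0.39 for Mrpl18, 0.73 ± 0.74 for Pradc1 and −0.17 ± 0.50 for Fam173b. B130034C11Rik was detected in 3 cells, all in the shCTCF cultures, with means of 2.33 and 0.494 TPM. Overlapping genes were Acat3 at Tcp1 (0.11 ± 0.56) and Usp16 at Cct8 (1.34 ± 0.61), with Mrpl18, Psph and Pradc1 also overlapping the subunit beside them and the small nucleolar RNAs Snora20 and Snora15 inside Tcp1 and Cct6a, detected in 3 and 9 cells. The study's text gives no strand for the counting, so reads of opposite genes in shared exons cannot be told apart. Of all 50-base words in the annotated transcripts, 13.9% of those of Tcp1 and 15.4% of those of Cct6a also occur in transcripts of other genes, 4.28% for Cct8, 2.89% for Cct7, 0.793% for Cct3 and 0.364% for Cct4, and 0% for Cct2 and Cct5. Most of the shared words of Tcp1, Cct6a, Cct7 and Cct8 were shared with the gene overlapping each, namely Acat3, Psph, Pradc1 and Usp16. Where these words lie in shared exons, the doubt is which gene a read was counted for, not whether it maps uniquely. Reads of words that also occur at other places would be lost, since only uniquely mapped reads were counted. Tcp1 and Cct6a had the largest shares, so their levels are the least certain of the 8 in this respect, but the size of the effect was not tested.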

How the data were processed

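Single EL4 cells were captured on the Fluidigm C1 system, amplified with SMARTer chemistry and sequenced. The authors aligned reads to GRCm38 with STAR, counted uniquely mapped reads per gene with HTSeq and deposited TPM values for 96 cells. Cells under 3000 detected genes were left out (1 cell). Groups came from the sample titles. The members and gene lists were chosen with earlier results of these data known.

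Whole reads were recovered from the TPM steps (504605 values above 0, 100% whole within 0.001 reads in 9602 genes seen in 10 or more cells) and used for depth, intervals and thinning to 80000 reads. Since TPM is no count, no count model was used.

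The 11980 genes that exceeded 1 on the log2(TPM + 1) scale in 2 or more cells were tested with limma 3.58.1 in R 4.3.3 on log2(mean TPM + 1) per culture (pseudocount 1, trend, Benjamini-Hochberg adjustment over all genes at 0.05). Fold changes on this scale understate low genes. The CV of log2(TPM + 1) was taken for 7843 genes whose mean exceeded 1 on that scale. Whether the culture numbers differ only in experiment or also in hairpin is not settled by the study's text. The number pairs the cultures by experiment in the methods, and deviations from the condition means correlated at 0.175 over 11980 genes. Named were the 8 subunits, Ctcf, from each list the genes with the 2 highest and the lowest statistic and the highest TPM, the 5 genes most correlated with the subunit mean, and genes overlapping a subunit or starting within 1000 bases on the opposite strand. Alternatives covered the scale, pseudocount, filters, block, left-out cultures, centring on the median gene and scaling to recovered reads. Sequences are from RefSeq (GRCm38.p6). Some marker genes of other cell types are not reported here.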

Additional observations from a re-analysis of the deposited data

Results flagged for a closer look

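Several genes had differences of opposite sign between shCTCF and shLuc in experiments 1 and 2, where each experiment has 1 culture per condition, and these differences between experiments were not tested. On the scale of log2(mean TPM + 1), Tcp1 had 0.29 in experiment 1 and −0.017 in experiment 2, Cct2 had −0.21 and 0.063, and Cct4 had 0.035 and −0.19. The CV difference of Tcp1 was −0.0373 in experiment 1 and 0.0513 in experiment 2, that of Cct4 −0.0916 and 0.0664, and that of Cct5 −0.0186 and 0.0599. All 3 positive CV differences lie in the experiment with the shallow cell.

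Ctcf, the targeted gene, had −1.85 in experiment 1 and 0.27 in experiment 2. Among the other named genes, Mkks had −0.44 and 0.91, Hspa8 0.066 and −0.30, Hsf1 0.92 and −0.88 and Hsf2 0.27 and −0.41. Mtch2 had 0.38 and −0.092, Commd3 0.14 and −0.22 and Fam173b −0.70 and 0.37. Snora20, detected in 3 cells, had −5.07 and 4.49.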

How the results depend on the processing

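With 2 cultures per condition, 0 of 8 subunits had an adjusted p under 0.05 by limma on log2(mean TPM + 1) under every other alternative tried for the level, and 1 did (Cct3, 1.51, adjusted p = 0.0151) with the block on the mean of log2(TPM + 1), a combination added after seeing the data. The replicate block on log2(mean TPM + 1) changed no call (median difference of the subunits 0.17). The number of genes called over the whole table was 0, 46 on the mean of log2(TPM + 1), and 687 there with the block. Of the 46, 44 were higher in CTCF-KD cells, and of the 687, 650 were. Leaving out 1 culture at a time gave differences of −0.40 to 0.68 for Tcp1, −0.34 to 0.19 for Cct2, −0.51 to 0.35 for Cct4, −0.093 to 0.27 for Cct6a, −0.040 to 1.02 for Cct8, 0.64 to 0.95 for Cct3, 0.20 to 0.58 for Cct5 and 0.099 to 0.29 for Cct7, the last 2 lowest without the culture labelled shCTCF #2. The median over the subunits ranged from −0.07 without shLuc #1 to 0.43 without shLuc #2. On the mean of log2(TPM + 1), with and without the block, Cct2 had 0.56 and Cct4 0.081, against −0.07 and −0.08. The mean share of positive cells over the subunits was higher in CTCF-KD by 0.815 percentage points, 2.71 after thinning to 80000 reads and 3.49 for TPM above 10. Thinning left out the shallow cell, where Tcp1 and Cct4 were at 0. No share over all genes is set beside these values, and cells of the shCTCF cultures had more detected genes. The median CV difference of the subunits, −0.0554, was −0.239 on linear TPM, −0.0914 with a pseudocount of 10, −0.0831 in experiment 1, −0.0336 in experiment 2 and −0.0897 without the shallow cell. The median pairwise r in the culture labelled shCTCF #2, 0.386, was 0.24 by Spearman, 0.222 in cells with both subunits above 0 and 0.151 without the shallow cell, and in shLuc #2, 0.0894, it was 0.195 by Spearman. The cause of these shifts was not tested. The ratio of the highest to the lowest subunit kept within 3.83 to 4.69 with 1 culture left out.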
